A study of Mus musculus with 6 samples.

Results

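Collagen chains were measured as 40 gene names on a mouse whole-genome array, out of the 27962 names it carries. They are the names that begin with Col and go on with a collagen type number, the letter a and a chain number. One further collagen gene is not analysed here. Of the 40, 39 are collagen chains, 11 of them fibrillar and 28 of other kinds. The last, Col4a3bp, is no collagen chain: it is a ceramide transporter named for its binding to the Col4a3 chain, and it was counted apart. The 40 names held 81 probes on 99 spots, and 29 of them had 2 or more probes. Each gene is given by its brightest probe over the 6 arrays, with the other probes as a check.

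The cells were primary mouse embryonic fibroblasts, a mixed culture of connective tissue cells taken from embryos, grown in medium with serum. Untreated cells (0 h) were compared with cells kept for 2 h or 4 h in 1 mM hydrogen peroxide (H2O2), an oxidant that enters cells. Each of these 3 groups had 2 arrays, which the study describes as independent experiments. No untreated cells were taken at 2 h or 4 h, so effects of the peroxide cannot be told apart from those of the hours in culture or of handling.

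Collagens are the main structural proteins of connective tissue, and fibroblasts are their chief makers. Their chains wind into helices with one another in the endoplasmic reticulum, where enzymes hydroxylate and glycosylate them and the chaperone Hsp47 holds them. After export the ends are cut off, and the molecules join into fibrils, networks, filaments or anchors, depending on the type.

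Signals below are processed signals divided by the 75th percentile of the same array, so that a value of 1 equals that percentile. They compare one probe across arrays and say nothing of one gene against another, because probes differ in brightness. All changes are log2 differences of these scaled signals, with the standard error of limma's fit over 17340 genes, and a change passed the test where its Benjamini-Hochberg adjusted p was under 0.05. Of the 39 chains, 37 entered the test: the 11 fibrillar ones and 26 others. Col10a1, the network collagen of growing cartilage, was well above background on 1 array of each group, and Col4a3, a kidney basement membrane chain, on none, and both were left out. The signal was well above background on all 6 arrays for 34 chains. Between 57.3% and 68.0% of the spots outside the controls were well above background and none was saturated. The 75th percentile itself was 826 and 883 in untreated cells, 675 and 677 at 2 h and 674 and 754 at 4 h. Because it was lower in the treated cells, dividing by it raised every treated value relative to the unscaled signal.

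At 2 h, 13 of the 37 chains rose (35.1%) and 0 fell, where 23.7% of all genes tested rose and 15.3% fell. At 4 h, 10 chains rose (27.0%) and 0 fell, where 24.6% of all genes rose and 18.4% fell. Apart from 3 chains the rises were small, between 0.23 and 0.46. Those 3 were Col11a2, a minor fibril chain of cartilage, Col9a3, a chain of the cartilage collagen that coats fibrils, and Col17a1, a membrane collagen of epithelial attachment plates. Col11a2 was 2.51-fold higher at 2 h and 6.05-fold higher at 4 h. Col9a3 was 2.74-fold and 2.31-fold higher, and Col17a1 2.14-fold and 1.61-fold. Of the chains tested, 70.3% had both 2 h arrays above both untreated ones, and 48.6% had both 4 h arrays above them. With 2 arrays a group this is common: the shares of all genes tested were 48% and 41.8%. In bulk samples like these, a change in RNA per cell and a change in the share of cells that hold the RNA cannot be told apart.

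The small rises depended on how the arrays were scaled. Beside the 75th percentile, 6 other scalings were run: quantile normalization, median centring, no scaling, scaling to the spots of the control RNAs added at labelling (spike-in), and normexp background correction with the 75th percentile or with quantile normalization. Col11a2 and Col9a3 were the only chains that passed as higher under all 7 scalings, at 2 h and again at 4 h. Of all genes tested, 4.10% passed as higher under all 7 at 2 h and 6.81% at 4 h. Spike-in scaling put 10 of the 13 chains that rose at 2 h below 0, and 2 of the 10 that rose at 4 h. It called 14 chains lower at 2 h (37.8%), where the 75th percentile called 0, and 53.4% of all genes lower. The median of all genes also moved with the scaling, from 0.12 at 2 h under the 75th percentile to 0.00 under quantile normalization, -0.08 under median centring, -0.22 with no scaling and -0.33 under spike-in scaling. At 4 h these medians were 0.07, -0.02, -0.09, -0.19 and -0.20. Normexp with the 75th percentile went the other way, with 0.13 at 2 h and 0.18 at 4 h. Normexp with quantile normalization gave 0.00 and -0.01. With the mean of each gene's probes, 9 chains (24.3%) were higher at 2 h and 7 (18.9%) at 4 h, beside 20.3% and 22.2% of all genes. The counts also fell when any 1 array was left out, which leaves the test fewer arrays. Leaving out any 1 untreated or 2 h array left 2 or 3 chains and between 10.5% and 11.7% of all genes higher at 2 h. Leaving out any 1 array left between 3 and 8 chains and between 11.8% and 19.4% of all genes at 4 h; Col11a2 and Col9a3 passed at both times in all 6 of these fits.

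**Figure D1:**
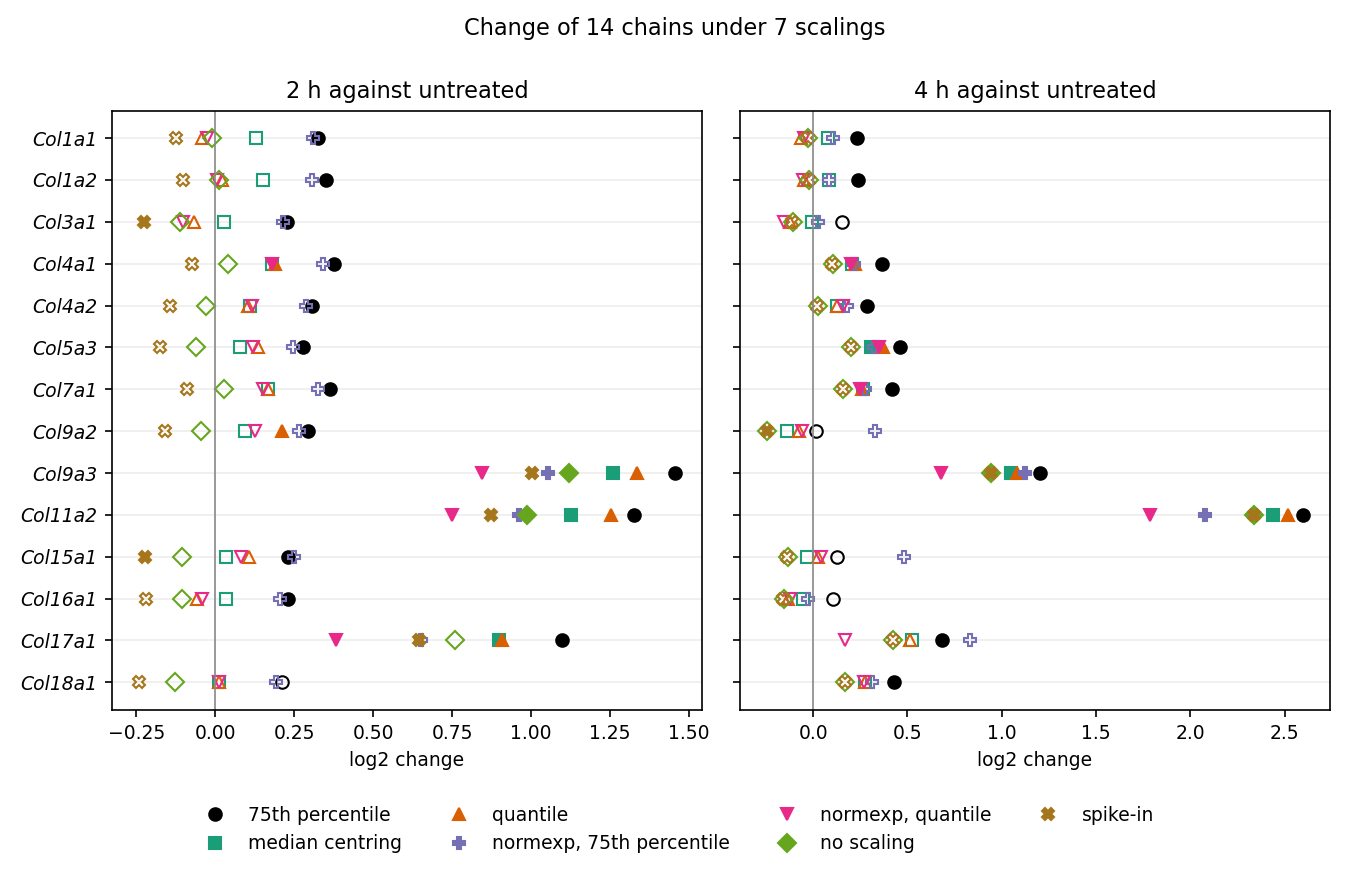
Log2 change of the 14 chains that rose at 2 h or 4 h, against untreated cells, under 7 scalings (x axis, log2 change; one marker shape per scaling; filled markers passed the test at an adjusted p under 0.05). Col9a3 and Col11a2 lie right of 0 and are filled under every scaling at both times, while Col1a1, Col1a2 and Col3a1 lie on both sides of 0.

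RefSeq gives a promoter window for 31 of the 39 chains, and none in the tables used for Col1a1, Col2a1, Col4a3, Col5a2, Col9a3, Col12a1, Col14a1 or Col22a1. The 250 bases before the start of 3 of them are shown, since the first pair belongs to chains that rose the most and the third to a chain whose signal barely moved before scaling. Coordinates are of build GRCm38.p6, with Col11a2 at chr17:34038888-34039137 on the plus strand, Col17a1 at chr19:47692043-47692292 on the minus strand and Col1a2 at chr6:4505368-4505617 on the plus strand. Each is written 5′ to 3′ along the gene's strand. Capitals mark matches, on either strand, to the TATA box spelled TATAAA, the box spelled CCAAT, the GC box spelled GGGCGG, the core of the antioxidant response element that Nrf2 binds, spelled TGACNNNGC, and the AP-1 site spelled TGANTCA.
Col11a2: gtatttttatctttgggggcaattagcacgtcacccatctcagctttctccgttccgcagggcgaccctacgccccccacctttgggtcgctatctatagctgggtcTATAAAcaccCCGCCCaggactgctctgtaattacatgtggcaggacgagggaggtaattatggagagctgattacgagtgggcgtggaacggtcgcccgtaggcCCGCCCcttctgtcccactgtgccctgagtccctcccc
Col17a1: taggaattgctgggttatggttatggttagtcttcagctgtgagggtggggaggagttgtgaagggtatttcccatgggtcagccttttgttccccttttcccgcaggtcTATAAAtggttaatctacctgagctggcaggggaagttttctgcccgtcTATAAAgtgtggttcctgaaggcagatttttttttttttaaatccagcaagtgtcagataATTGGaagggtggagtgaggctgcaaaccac
Col1a2: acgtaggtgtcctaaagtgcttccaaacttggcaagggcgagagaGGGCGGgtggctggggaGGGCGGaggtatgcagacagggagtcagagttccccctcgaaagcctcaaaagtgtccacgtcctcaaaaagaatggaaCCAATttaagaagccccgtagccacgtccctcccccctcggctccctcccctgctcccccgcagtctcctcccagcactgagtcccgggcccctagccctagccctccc
The Col11a2 window held 1 TATA box and 2 GC boxes, and the Col17a1 window 2 TATA boxes and 1 CCAAT box. The Col1a2 window held no TATA box, 1 CCAAT box and 2 GC boxes. None of these 3 windows held the antioxidant response core or the AP-1 letters. Over 32851 mouse windows of this length, 12.4% held a TATA box, 33.8% a CCAAT box, 32.7% a GC box, 10.2% the antioxidant response core and 6.75% the AP-1 site. Among the 31 chain genes the numbers were 5, 12, 18, 5 and 1. The antioxidant response core was found in Col4a2, Col6a2, Col7a1, Col9a2 and Col24a1. A match is only a match of letters, and binding was not measured.

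The fibrillar chains form the ropes of tendon, skin, bone and cartilage. Col1a1 and Col1a2 are the chains of type I collagen, the main fibril of skin and bone. The scaled signal of Col1a1 was 146 and 138 in untreated cells, 177 and 179.9 at 2 h and 172 and 162 at 4 h. Every treated array lay above both untreated ones, and the change was 0.33 ± 0.06 at 2 h (adjusted p = 0.0186) and 0.23 ± 0.06 at 4 h (adjusted p = 0.0425), with a sign that turned under quantile normalization, no scaling, spike-in scaling and normexp with quantile normalization. Col1a2 read 271 and 256, then 343 and 328 at 2 h, then 321 and 301 at 4 h. Its groups did not overlap either, with changes of 0.35 ± 0.07 (adjusted p = 0.0182) and 0.24 ± 0.07 (adjusted p = 0.0469), which turned below 0 under spike-in scaling at 2 h and under 4 scalings at 4 h. With the mean of its probes Col1a2 passed as lower at 2 h (-0.33, adjusted p = 0.0251). That mean gives equal weight to a far dimmer probe 26.8 kb upstream, described below, which had -1.01 at 2 h. Col1a1, averaged in the same way, passed at neither time. Before scaling, Col1a1 signals ran from 116177 to 122335 and Col1a2 signals from 216738 to 231580 over the 6 arrays, and treated and untreated arrays overlapped for both.

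Col3a1, the fibril chain of vessels and healing skin, read 92.8 and 86.3 in untreated cells, 104 and 105 at 2 h and 101 and 98.1 at 4 h. It rose by 0.23 ± 0.06 at 2 h (adjusted p = 0.0460) and had 0.15 ± 0.06 at 4 h (adjusted p = 0.117), and its sign turned under quantile normalization, no scaling, spike-in scaling and normexp with quantile normalization at 2 h. Type V collagen sits in the core of type I fibrils and limits their width. Of its chains, neither Col5a1 nor Col5a2 passed at either time. Col5a1 read 86.8 and 84.1, then 90.8 and 87.1, then 86.3 and 80.1, with 0.06 ± 0.07 and -0.04 ± 0.07. Col5a2 read 33.0 and 33.6, then 36.6 and 37.5, then 34.0 and 34.4, with 0.15 ± 0.05 (adjusted p = 0.0782) and 0.04 ± 0.05. Under quantile normalization and spike-in scaling, Col5a1 instead passed as lower at both times, with -0.22 and -0.39 at 2 h and -0.30 under each at 4 h. Col5a2 also passed as lower, under spike-in scaling at 2 h and under both scalings at 4 h.

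Col5a3, the third type V chain, read 7.53 and 7.87 in untreated cells, 9.49 and 9.17 at 2 h and 10.8 and 10.4 at 4 h. The 3 groups did not overlap, and the rise was 0.28 ± 0.06 at 2 h (adjusted p = 0.0233) and 0.46 ± 0.06 at 4 h (adjusted p = 0.00534). At 2 h its change was -0.06 with no scaling and -0.18 under spike-in scaling, whereas at 4 h it lay above 0 under all 7 scalings, between 0.20 and 0.46. With the mean of its probes Col5a3 passed at neither time.

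Col11a2 codes for a chain of type XI collagen, which sits in cartilage fibrils with type II. Its scaled signal was 0.170 and 0.130 in untreated cells, 0.375 and 0.368 at 2 h and 0.956 and 0.841 at 4 h. Each group lay wholly above the one before it. The change was 1.33 ± 0.15 at 2 h (adjusted p = 0.00398) and 2.60 ± 0.15 at 4 h (adjusted p = 0.000772), and it lay between 0.75 and 1.33 at 2 h and between 1.79 and 2.60 at 4 h over the 7 scalings. From 2 h to 4 h it rose by another 1.27 ± 0.15 (adjusted p = 0.0066), which had an adjusted p of 0.0549 without replicate 1 at 2 h and passed without any other single array. With the mean of the probes of each gene, this change from 2 h to 4 h was 0.41 (adjusted p = 0.119). Its partner chain Col11a1 had 0.08 ± 0.13 and -0.17 ± 0.13, and Col2a1, the type II chain, 0.30 ± 0.39 and -0.09 ± 0.39, none past the test. With the slide as a block, Col2a1 passed at 2 h (adjusted p = 0.0444), its changes within the slides being 0.30 and 0.29.

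A second probe for Col11a2 gave other values. That probe lies 13.8 kb upstream along the gene and was well above background on 3 of the 6 arrays. Its processed signal was 16.9 and 19.7 in untreated cells, 32.3 and 20.3 at 2 h and 19.6 and 19.7 at 4 h, against 140 and 114, 253 and 250, and 645 and 635 for the probe nearer the 3′ end. Its change was 0.83 at 2 h (adjusted p = 0.0526 over all probes), 0.37 at 4 h (adjusted p = 0.271) and -0.46 from 2 h to 4 h. The rise of Col11a2 at 4 h therefore rests on 1 probe. Of its neighbours on the chromosome, Rxrb, a nuclear receptor, had -0.13 ± 0.07 at 2 h and fell by 0.26 at 4 h, and Brd2, a chromatin reader next but one, fell by 0.41 at 2 h and had -0.03 at 4 h. Slc39a7, a zinc transporter beyond Rxrb, rose by 0.29 at 2 h and had 0.08 at 4 h.

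The remaining fibrillar chains, Col24a1 and Col27a1, had changes of 0.00 and 0.12 at 2 h and -0.00 and 0.20 at 4 h, and neither passed. In all, 5 of 11 fibrillar chains rose at 2 h (45.5%) and 4 of 11 at 4 h (36.4%). Of the 26 others, 8 (30.8%) and 6 (23.1%) rose, beside 23.7% and 24.6% of all genes tested. The median change of the fibrillar chains was 0.23 at 2 h and 0.15 at 4 h. That of the other chains was 0.23 and 0.10, and that of all genes tested 0.12 and 0.07. Fibrillar and other chains thus had medians 0.00 apart at 2 h and 0.05 at 4 h, a gap whose sign was not stable. Averaging all probes of each gene made it -0.11 and -0.15. At 4 h it was -0.16 and -0.032 under the normexp scalings, -0.026 without 4 h replicate 2 and 0.11 without untreated replicate 1.

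**Figure D2:**
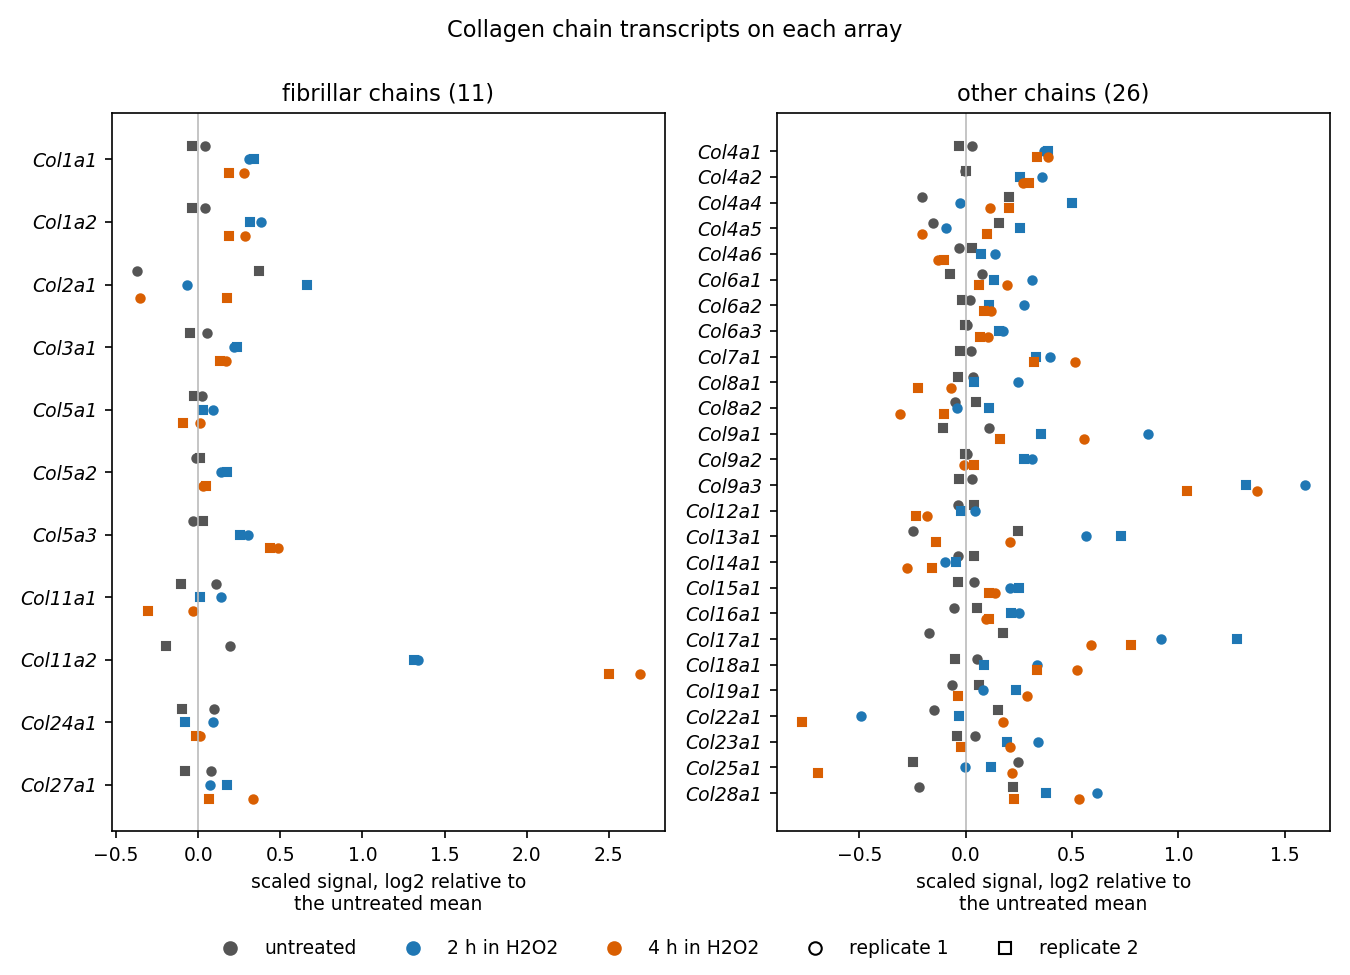
Scaled signal of each of the 37 chains tested, as log2 relative to the mean of the 2 untreated arrays (x axis), with one point per array, circles for replicate 1 and squares for replicate 2. Col11a2 climbs from untreated to 2 h to 4 h with no overlap, Col9a3 and Col17a1 stand clear of the untreated arrays at both times, and most other chains stay within 0.5 of 0; the sign of the small shifts changes with the scaling, as for Col1a1.

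Basement membrane collagen is a sheet-forming network under epithelia and vessels, and Col4a1 with Col4a2 is its common form. Col4a1 read 11.4 and 10.97 in untreated cells, 14.4 and 14.6 at 2 h and 14.7 and 14.1 at 4 h. Col4a2 read 12.4 and 12.5, then 16.0 and 14.9, then 15.0 and 15.3. Neither gene's treated arrays overlapped its untreated ones. Col4a1 rose by 0.38 ± 0.06 (adjusted p = 0.00911) and 0.36 ± 0.06 (adjusted p = 0.00917), and Col4a2 by 0.31 ± 0.06 (adjusted p = 0.0194) and 0.28 ± 0.06 (adjusted p = 0.0223), both below 0 at 2 h under spike-in scaling. With the mean of each gene's probes, Col4a1 passed at both times and Col4a2 at neither. The genes are neighbours on opposite strands, transcribed away from each other. Of the other type IV chains, which belong to kidney, eye and muscle membranes, Col4a4, Col4a5 and Col4a6 had 0.24, 0.08 and 0.11 at 2 h and 0.16, -0.05 and -0.12 at 4 h, and none passed.

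Beaded filament collagen, type VI, links cells to the matrix around them. Col6a1 read 22.5 and 20.3, then 26.5 and 23.4, then 24.4 and 22.3. Col6a2 read 6.16 and 6.01, then 7.36 and 6.56, then 6.60 and 6.46. With Col6a3 they had 0.22 ± 0.10, 0.19 ± 0.08 and 0.17 ± 0.05 at 2 h and 0.13, 0.10 and 0.09 at 4 h, and 0 of these 3 chains passed. All their 2 h arrays lay above the untreated ones, as for 48% of all genes tested. With the slide of each array pair as a block, which is also the replicate number, Col6a1 and Col6a3 passed at 2 h. That block raised the count of chains called higher from 13 to 20 at 2 h (33.4% of all genes), adding also Col2a1, Col5a2, Col9a1, Col18a1 and Col23a1. At 4 h it gave 11 higher, with Col9a1 added (30.9% of all genes), and 2 lower, Col8a2 and Col14a1 (22.8% of all genes).

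Fibril-associated collagens coat other fibrils and join them to their surroundings. Among them Col9a3 stood apart: it read 0.0999 and 0.09595 in untreated cells, 0.296 and 0.244 at 2 h and 0.253 and 0.201 at 4 h. The treated arrays were all more than 2-fold above the untreated ones. It rose by 1.46 ± 0.15 at 2 h (adjusted p = 0.00308) and 1.21 ± 0.15 at 4 h (adjusted p = 0.00501), between 0.84 and 1.46 and between 0.68 and 1.21 over the 7 scalings. It was well above background on every array and passed without any single array, but has 1 probe. Its neighbours on one side, Tcfl5 and Dido1, rose by 0.28 and 0.49 at 2 h and by 0.41 and 0.79 at 4 h. On the other side Ogfr had 0.34 and 0.14 and Mrgbp -0.48 and -0.09, none past the test.

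The partners of Col9a3 in type IX collagen are Col9a1 and Col9a2. Col9a2 read 0.209 and 0.208, then 0.259 and 0.252, then 0.207 and 0.215, so that only the 2 h arrays stood out. It rose by 0.29 ± 0.05 at 2 h (adjusted p = 0.0162), had 0.02 ± 0.05 at 4 h, and fell by 0.28 from 2 h to 4 h (adjusted p = 0.0235), with a sign at 2 h that turned with no scaling and under spike-in scaling and a fall from 2 h that became 0.06 under normexp with the 75th percentile. Col9a1 had 0.61 ± 0.23 and 0.36 ± 0.23 and did not pass. Col16a1, a chain of skin and cartilage fibrils, read 28.2 and 30.5, then 34.9 and 34.0, then 31.4 and 31.7, and rose by 0.23 ± 0.06 at 2 h (adjusted p = 0.0449), below 0 under 4 other scalings.

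Col12a1 and Col14a1, which bind type I fibrils in tendon and skin, went the other way at 4 h without passing. Col12a1 read 2.18 and 2.30, then 2.31 and 2.20, then 1.97 and 1.91, with -0.21 ± 0.06 at 4 h (adjusted p = 0.0551). Col14a1 had -0.22 ± 0.07 (adjusted p = 0.0636). Restricting the test to genes well above background on all 6 arrays brought both past it as lower, and both also passed as lower at 4 h under median centring, no scaling and spike-in scaling. Col19a1 and Col22a1 had 0.16 and -0.26 at 2 h and 0.13 and -0.30 at 4 h and did not pass.

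Col7a1 forms the anchoring fibrils that hold skin to its basement membrane. It read 12.85 and 12.4 in untreated cells, 16.6 and 15.9 at 2 h and 18.04 and 15.8 at 4 h, all treated arrays above both untreated ones and the 2 h and 4 h arrays overlapping. The rise was 0.36 ± 0.09 (adjusted p = 0.0303) and 0.42 ± 0.09 (adjusted p = 0.0190), -0.09 under spike-in scaling at 2 h and above 0 under all 7 scalings at 4 h. Ucn2, the gene beside it, which codes for a peptide hormone, rose by 1.61 and 1.25, and Pfkfb4, a glycolytic regulator next to Ucn2, fell by 0.41 and 0.26. On the other side Uqcrc1, a respiratory chain subunit, rose by 0.35 at 2 h and had 0.22 at 4 h, and Tmem89 did not pass.

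The short-chain network collagens Col8a1 and Col8a2, found under endothelium and in the cornea, had 0.14 and 0.04 at 2 h and -0.15 and -0.20 at 4 h, and neither passed. The multiplexins Col15a1 and Col18a1 carry sugar side chains at basement membranes. Col15a1 read 0.151 and 0.143, then 0.170 and 0.175, then 0.162 and 0.158, and rose at 2 h by 0.23 ± 0.06 (adjusted p = 0.0372), where spike-in scaling called it lower. Col18a1, the source of endostatin, read 12.9 and 11.98, then 15.6 and 13.2, then 17.9 and 15.6. It rose at 4 h by 0.43 ± 0.12 (adjusted p = 0.0434). Its change there lay above 0 under all 7 scalings, but it passed under none of the other scalings. A second Col18a1 probe 245 bases away rose by 0.51 at 4 h (adjusted p = 0.0155).

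Transmembrane collagens stay anchored in the cell surface. Col17a1 read 0.0491 and 0.0624 in untreated cells, 0.105 and 0.134 at 2 h and 0.0834 and 0.0947 at 4 h. All treated arrays were above both untreated ones, and the highest were those at 2 h. It rose by 1.10 ± 0.18 at 2 h (adjusted p = 0.0116) and 0.68 ± 0.18 at 4 h (adjusted p = 0.0383), and its sign was positive under all 7 scalings. Of the other scalings, quantile normalization, median centring, spike-in scaling and normexp with quantile normalization also called it higher at 2 h. At 4 h it passed under none of the other scalings. The 2 h call was lost without untreated replicate 1 (0.92, adjusted p = 0.0573) or 2 h replicate 2 (0.92, adjusted p = 0.0530), and the 4 h call without any single array but 2 h replicate 2 (adjusted p between 0.0533 and 0.154). Its second probe, 312 bases away, was well above background on 1 array, with processed signals of 11.9 and 17.4 at 2 h against 6.37 and 8.80 in untreated cells. With the mean of its probes Col17a1 passed at 2 h and not at 4 h. Col13a1, Col23a1 and Col25a1 had 0.65, 0.27 and 0.06 at 2 h and 0.04, 0.10 and -0.24 at 4 h, and Col28a1, a chain of nerve basement membranes, 0.50 and 0.38. None of these passed, and Col13a1, Col25a1 and Col28a1 were not above background on every array.

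From 2 h to 4 h, 1 of 37 chains rose (2.70%), Col11a2, and 1 fell, Col9a2, where 13.4% of all genes rose and 16.4% fell. The median change of the chains over this step was -0.11, against -0.08 for all genes. With the slide as a block, 7 chains (18.9%) and 23.2% of all genes fell over this step: Col2a1, Col4a6, Col8a1, Col8a2, Col9a2, Col11a1 and Col17a1. This comparison shares its arrays with the preceding ones, so it is not a separate measurement.

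Col4a3bp, which is no collagen, read 5.17 and 5.08 in untreated cells, 3.02 and 3.15 at 2 h and 2.15 and 2.23 at 4 h. Each step was a fall without overlap: by 0.73 at 2 h (adjusted p = 0.00141), by 1.23 at 4 h (adjusted p = 0.000517) and by 0.49 between them (adjusted p = 0.0064). A pair of weaker probes for it fell by 0.49 and 0.75 at 4 h and did not pass at 2 h.

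Small rises were common among bright genes, and not only among collagen chains. Of the 37 chains, 13 lay in the brightest of 10 equal bins of the tested genes by mean signal. Not all of these 13 passed, as Col5a1 and Col8a1 did at neither time. The 1734 genes of that bin had a median change of 0.27 at 2 h, and 45.6% of them rose. At 4 h their median was 0.22 and 39.9% rose. Counted from the dimmest, genes in bin 1 had medians of 0.30 and 0.13, those in bin 2 0.21 and 0.16, and those in bin 5 -0.03 and -0.04. The higher medians were thus not particular to bright genes. Col1a2, at the far right of the signal range, thus had 0.35 and 0.24 beside 0.27 and 0.22 for its bin, while Col11a2, in bin 4, had 1.33 and 2.60 beside 0.05 at each time.

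**Figure D3:**
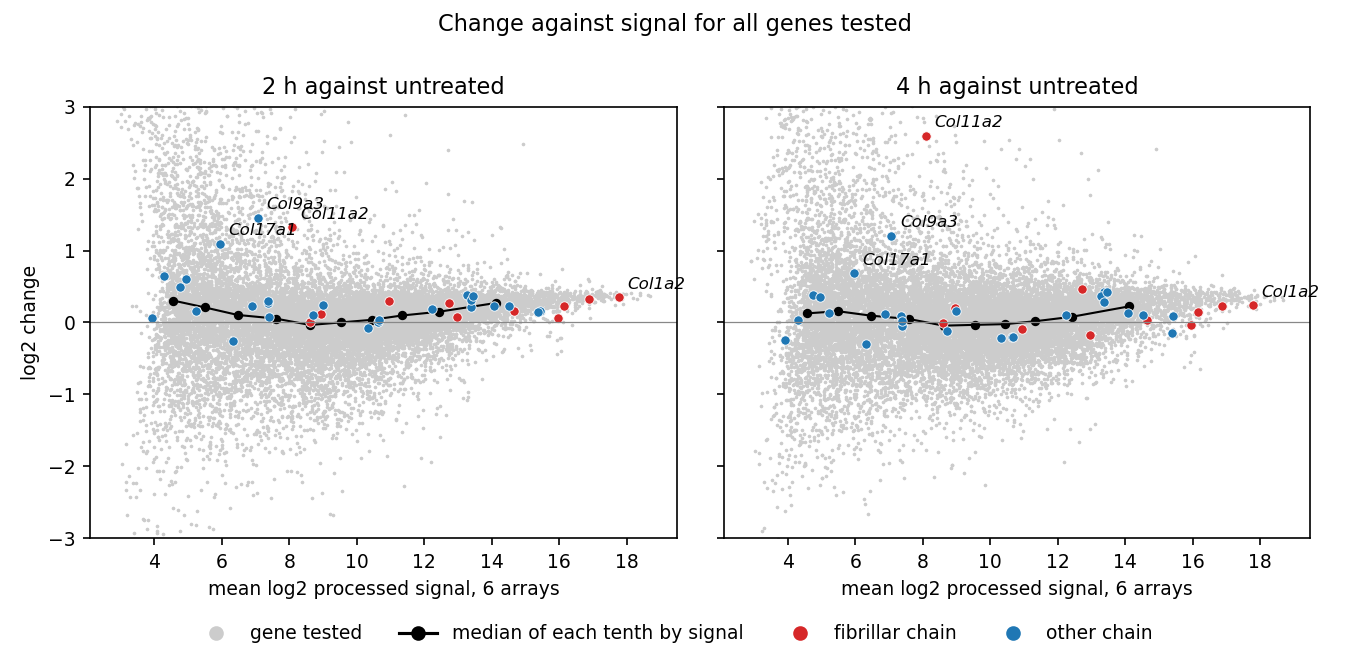
Log2 change of each gene tested (y axis) against its mean log2 processed signal over the 6 arrays (x axis) at 2 h and 4 h, with fibrillar chains in red, other chains in blue and the median of each of 10 bins of genes by signal in black; changes beyond 3 in either direction are not drawn. The median is lowest near the middle of the signal range. It is 0.27 at 2 h and 0.22 at 4 h in the brightest bin, where 13 chains lie, and 0.30 and 0.13 in the dimmest. These medians depend on the scaling.

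Probes placed far upstream in the same genes were set against the gene's main probe, which lies further downstream. The main probe is the brightest of its gene, and median changes over all genes differed with signal, as above. The part of signal in the gaps below was not tested, and no share over upstream probes of other genes was taken. Such probes more than 5 kb upstream along the gene and above background on all 6 arrays numbered 11, in 10 genes; this set was chosen after the values were seen and has no test. At 2 h, 4 of the 11 had a lower change than the gene's main probe, 3 of them on both slides. At 4 h, 9 of the 11 did, 8 of them on both slides. For Col1a2 the difference at 2 h was the widest of the 11: the probe 26.8 kb upstream, designed to a cDNA clone, read 184 and 231 processed units in untreated cells, 76.5 and 85.6 at 2 h and 128 and 172 at 4 h. It fell by 1.01 at 2 h (adjusted p = 0.00696 over all probes), had -0.21 at 4 h and rose by 0.80 from 2 h to 4 h (adjusted p = 0.0166), where the main probe had 0.35, 0.24 and -0.11.

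Whether that clone belongs to the mature Col1a2 transcript was not tested. For Col3a1, the probe 27.2 kb upstream read 329 and 322 in untreated cells, 239 and 252 at 2 h and 207 and 230 at 4 h. It fell by 0.32 at 4 h (adjusted p = 0.0260), while the main probe had 0.15. The upstream probe of Col1a1, 13.8 kb away, had 0.09 and -0.04 against 0.33 and 0.23. At 2 h, however, only 4 of the 11 upstream probes were below their main probe, and most were above it. Among those above, the probe of Col6a2 at 5.6 kb rose by 0.35 at 2 h (adjusted p = 0.0133) against 0.19. Both upstream probes of Col6a3 were also above its main probe at 2 h.

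**Figure D4:**
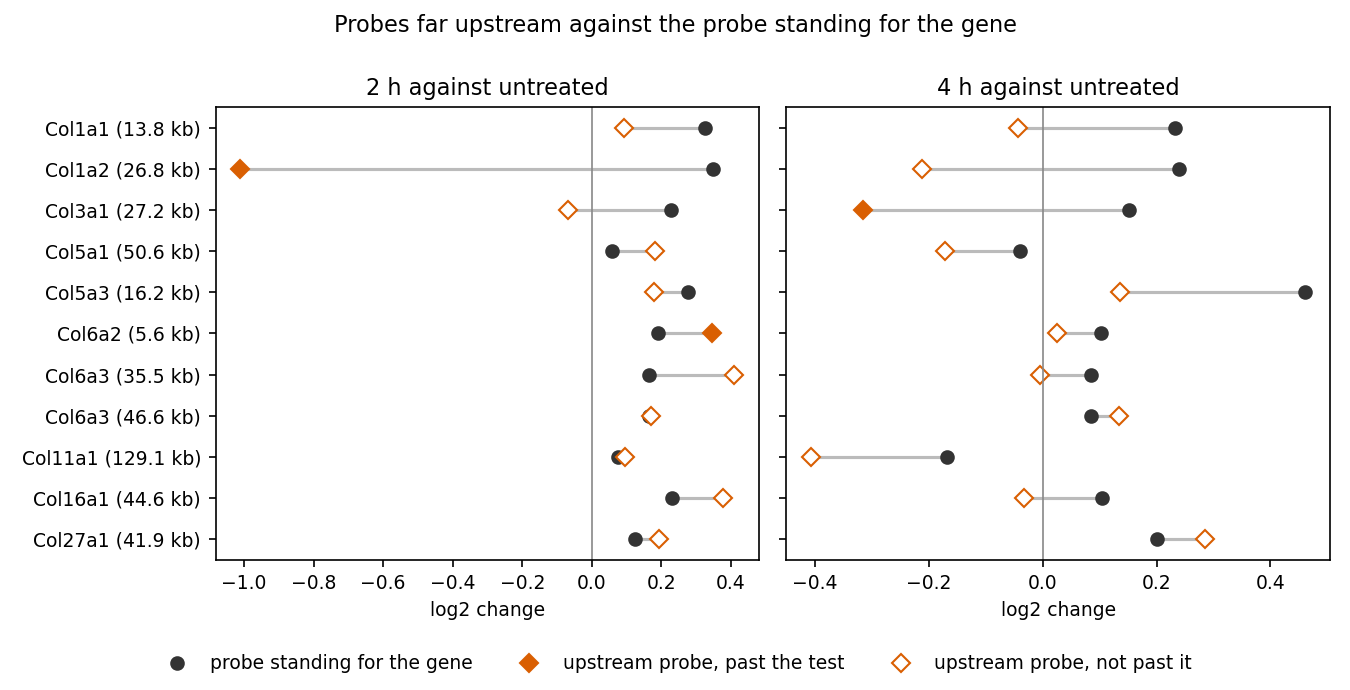
Log2 change against untreated cells (x axis) of the 11 upstream probes (diamonds, filled where they passed the test) and of the main probe of the same gene (dark circles) at 2 h and 4 h, with the distance between them in kb. At 4 h, 9 of 11 diamonds lie left of their circle; at 2 h, 4 do, with the Col1a2 probe at -1.01.

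Other probe pairs also disagreed. The main probe of Col2a1, printed on 10 spots, read 1612 and 2882 processed units in untreated cells, with all slide 2 arrays above all slide 1 arrays, while a probe 20 bases away read 1107 and 1134 and rose by 0.40 at 2 h (adjusted p = 0.0417). A second probe of Col22a1 rose by 1.07 at 2 h (adjusted p = 0.00174) and 0.58 at 4 h (adjusted p = 0.00895). The main probe had -0.26 and -0.30. The second probe was well above background on only 3 arrays, so its calls rest on dim signals. It read 27.4 and 33.4 processed units in untreated cells, 49.9 and 50.7 at 2 h and 36.8 and 38.5 at 4 h. One probe of Col25a1 read 339 on 2 h replicate 1 alone and between 3.97 and 7.60 on the other 5 arrays. Over every probe tested, 21.2% were called higher at 2 h and 23.0% at 4 h, and 14.5% and 17.6% lower; from 2 h to 4 h, 13.3% were higher and 14.8% lower.

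The enzymes and chaperones that make collagen molecules were read next. Beside the counts in this and the following lists, 23.7% of all genes tested rose and 15.3% fell at 2 h. At 4 h, 24.6% rose and 18.4% fell. Of 13 prolyl and lysyl hydroxylase genes and their partners, 1 rose at each time, Ppib, the cyclophilin that helps the helix fold (0.40 at 2 h and 0.43 at 4 h). Their median change was 0.18 and 0.11. Of 10 chaperones and glycosyltransferases, 4 rose and 1 fell at 2 h, and 2 rose and 1 fell at 4 h, with medians of 0.26 and 0.17. Serpinh1, which codes for Hsp47, rose at 2 h by 0.37 (scaled signals of 149 and 149.5 against 185 and 203) and had 0.22 at 4 h, and the chaperone Hspa5 rose by 0.37 and 0.32. All 3 genes were below 0 at 2 h under spike-in scaling. Tmem38b, an ion channel of the endoplasmic reticulum, fell by 0.26 and 0.29, the latter with a sign that turned under another scaling, and Colgalt2, a collagen galactosyltransferase not well above background in untreated cells, was at least 3.02-fold higher at 2 h. Such bounds set the brighter group against the lowest signal well above background on each dimmer array.

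Of 9 genes tested for the export of procollagen from the cell, 2 rose and 2 fell at 2 h, and 2 rose and 3 fell at 4 h, with medians of 0.08 and -0.04 beside 0.12 and 0.07 for all genes. Klhl12, an adaptor of the ubiquitin ligase that enlarges transport vesicles, read 0.927 and 0.948 in untreated cells, 0.488 and 0.485 at 2 h and 0.670 and 0.712 at 4 h, falling by 0.95 (adjusted p = 0.000802) and 0.44 (adjusted p = 0.00595). Trappc2, a tethering factor, fell by 0.43 and 0.55, and Creb3l2, a transcription factor for secretory genes, by 0.43 at 4 h. These falls kept their sign under all 7 scalings. Sec23a, a coat protein of the vesicles, rose by 0.34 at 4 h.

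Of 12 genes for propeptide cleavage and crosslinking, 1 rose at 2 h, and 4 rose and 1 fell at 4 h. Bmp1, which cuts off the C-propeptide, and Loxl2, a crosslinking enzyme, rose by 0.36 and 0.34 at 4 h, and Pcolce2, an enhancer of that cut, by 0.33 at 2 h. Adamts3, which removes the N-propeptide, fell by 0.62 at 4 h. The signs of Pcolce2 at 2 h and Adamts3 at 4 h turned under at least 1 other scaling. Among 13 fibril-binding proteins, 2 rose and 1 fell at 2 h and 1 rose and 1 fell at 4 h: tenascin X, Tnxb, rose by 0.81 at 2 h and had 0.11 at 4 h, periostin, Postn, rose by 0.23 at both, with a sign that turned under other scalings, and thrombospondin 1, Thbs1, fell by 0.35 and 0.54.

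Of 9 collagen receptors tested, 1 rose at 2 h, and 2 rose and 2 fell at 4 h. Lair1, an inhibitory receptor of immune cells, read 0.146 and 0.165, then 0.385 and 0.327, then 0.252 and 0.288, and rose by 1.19 and 0.80. Itga10, an integrin chain of chondrocytes, rose by 1.17 at 4 h, and the integrin chains Itga1 and Itga11 fell by 0.26 and 0.20 there, Itga1 with a sign that turned under another scaling.  Of 9 proteases that cut collagen, 5 rose at each time and 0 fell. Of all genes tested, 23.7% rose and 15.3% fell at 2 h, and 24.6% rose and 18.4% fell at 4 h. Mmp9, a gelatinase not well above background in untreated cells, was at least 4.78-fold higher at 2 h and at least 3.51-fold at 4 h. Mmp15, a membrane protease, rose by 0.67 and 1.33, and Mmp2 and Ctsk each rose by 0.23 at 2 h, where spike-in scaling put them below 0, and by 0.28 and 0.27 at 4 h.

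Markers of cell types were read beside these results. Their counts stand beside 23.7% of all genes tested higher and 15.3% lower at 2 h, and 24.6% and 18.4% at 4 h. All 11 fibroblast markers were tested, with 3 higher and 2 lower at 2 h and 4 higher and 2 lower at 4 h. Pdgfra and Twist1 fell by 1.08 and 0.65 at 2 h and by 0.70 at 4 h, under all 7 scalings, while Vim and Fbln1 rose by 0.39 and 0.37 at 2 h, with signs that turned under another scaling. The summed scaled signal of the fibroblast list was 640 to 689 in untreated arrays, 812 to 828 at 2 h and 777 to 854 at 4 h.

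Since Col11a2, Col9a3 and Col9a2 are known from cartilage, chondrocyte markers bear on them. Of 10, 7 were tested, with 3 higher at 2 h and 2 at 4 h (Ihh and Hapln1 at both times and Matn3 at 2 h, Hapln1 with a sign at 2 h that turned under another scaling). Ihh was well above background on both 2 h arrays and on no untreated or 4 h array. The summed scaled signal of the chondrocyte list was 4.29 to 4.67 in untreated arrays, 4.39 to 4.81 at 2 h and 3.91 to 4.34 at 4 h. Matn1 and Cnmd were well above background on no array. Acan, the cartilage proteoglycan, had 0.22 and -0.22 and Sox9, the factor that drives cartilage genes, -0.21 and -0.28, none past the test. Osteoblast markers had 2 of 6 higher at each time (Bglap1 and Spp1) and 1 lower at 4 h (Sp7, whose sign turned under another scaling), with summed signals of 26.9 to 28.0, 39.2 to 41.4 and 46.3 to 46.9. Each sum is weighted by its brightest probes: Spp1 made up at least 94.3% of the osteoblast sum, Sox9 48.5% of the chondrocyte sum, S100a4 50.1% of the fibroblast sum, Krt18 62.8% of the epithelial and Acta1 60.8% of the muscle sum.

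Of the markers of cells other than connective tissue, part rose and 0 passed as lower at 2 h or 4 h. The median changes of the tested members of the endothelial, epithelial, muscle and leukocyte lists were 1.53, 0.68, 0.73 and 0.47 at 2 h. At 4 h they were 1.29, 0.67, 0.36 and 0.27. All genes tested had medians of 0.12 and 0.07. A marker not well above background in untreated cells, such as Robo4 or Pecam1, entered the test only through a treated group. Markers well above background in no group were left out. Both can raise the list medians and counts, which therefore do not measure the whole lists. Of 8 endothelial markers tested, 5 rose at 2 h and 3 at 4 h, among them Vwf by 1.81 and 2.22 and Robo4 by at least 5.43-fold and 3.31-fold. Pecam1 was at least 2.26-fold higher at 2 h; it also passed at 4 h, but was well above background on no untreated and no 4 h array. Cldn5 passed at 2 h, with 0.213 and 0.109 against 0.00654 and 0.0191 in untreated cells, where 1 array was not well above background. The endothelial receptors Kdr and Tek had 0.10 and 0.05 at 2 h and 0.23 and -0.21 at 4 h and did not pass. The summed scaled signal of the endothelial list was 0.620 to 0.645, then 1.20 to 1.32, then 1.15 to 1.17, and Cdh5 and Tie1 were well above background on no array. Of 5 epithelial markers 3 rose at each time (Cdh1, Krt18 and Krt8, the last with a sign at 2 h that turned under another scaling), with sums of 1.61 to 1.73, 2.50 to 2.57 and 2.40 to 2.68. Of 6 muscle markers 4 rose at each time (Myh3, Tnnt3, Ttn and Des, the last with a sign at 2 h that turned under another scaling), with sums of 5.07 to 7.15, 6.35 to 8.85 and 5.87 to 7.04, the last within the untreated range. Of 7 leukocyte markers 3 rose at each time (Cd68, Itgam and Csf1r), with sums of 1.84 to 2.03, 2.28 to 2.48 and 2.26 to 2.36. Their part in the rises of Col11a2, Col9a3 and Col17a1 was not tested.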

How the data were processed

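RNA of the 6 cultures was labelled with Cy3 and hybridised to 1-colour Agilent arrays. Per the file headers, the deposited processed signal is an intensity that Feature Extraction 9.5.3.1 (protocol GE1-v5_95_Feb07) had already corrected for background. The deposited value table holds the same signals, unscaled, within 0.0005. From the scanner files, log2 processed signals minus each array's 75th percentile were computed here, controls and outlier spots were left out, repeat spots averaged, and the brightest probe kept per gene name. A gene entered the test if 1 or more groups had it well above background on both of their arrays. Tests used limma 3.58.1 in R 4.3.3 (3 residual degrees of freedom), with Benjamini-Hochberg adjustment over 17340 genes. The procedure was tested on simulated data.

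Members and lists were chosen with earlier results of these data known. Values in every array are given for members past the test whose groups did not overlap and for 11 common chains fixed by name. Of each other list, up to 4 genes past the test with the largest change are named. The 2 arrays of a group are independent experiments per the labels, with no word on what made them so, and their number limits the precision.

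Replicate number and slide coincide. Deviations from the group means of same-numbered arrays correlated at 0.25, 0.19 and 0.24 over genes, so a fit with the number as a block was run as a check. The main tests took the arrays as unpaired, and their standard errors, adjusted p values and counts leave this pairing out. Each time point had the same place on both slides, so place and time cannot be told apart. Probe distances use the files' coordinates, for which no build is named. Promoter letters are RefSeq's.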

Additional observations from a re-analysis of the deposited data

Results flagged for a closer look

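In 8 cases the change at 4 h and the change at 2 h differed by a direct test between the 4 h and the 2 h arrays (limma, adjusted p under 0.05). For Col11a2 the 4 h change exceeded the 2 h change by 1.27. For Col9a2 it was smaller, with a difference of -0.28, and for Col4a3bp, which fell at both times, the difference was -0.49. The other 5 came from probes other than the one standing for the gene. The upstream Col1a2 probe recovered by 0.80 after its fall, while the dimmest Col4a3bp probe above background had -0.59. The second probes of Col5a1, Col6a2 and Col22a1 had -0.35, -0.32 and -0.50. That of Col22a1 was well above background on only 3 arrays. All 8 comparisons use the same 4 arrays at 2 h and 4 h.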

How the results depend on the processing

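Counts here are of collagen gene names, Col4a3bp included, which fell at both times; leaving it out gave 0 lower at 2 h, 0 at 4 h and 1 from 2 h to 4 h. In the order quantile normalization, median centring, no scaling, spike-in scaling, normexp with the 75th percentile and normexp with quantile normalization, 5, 3, 2, 3, 2 and 4 names were higher at 2 h (13 as reported) and 5, 3, 2, 2, 2 and 5 at 4 h (10 as reported). Names lower at 2 h (1 as reported) were 2, 2, 4 and 15 under the first 4 of these and 2 under the last; at 4 h (1 as reported) they were 4, 5, 7, 10 and 5. From 2 h to 4 h, quantile normalization, spike-in scaling and normexp with quantile normalization each gave 2 higher (1 as reported), and 1 was lower (2 as reported) under median centring, no scaling, spike-in scaling and normexp with the 75th percentile, and 4 under normexp with quantile normalization.

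With no filter on dim probes, 4 names were higher at 2 h, 4 at 4 h, and 1 lower from 2 h to 4 h. Only genes above background on all 6 arrays gave 3 lower at 4 h and 4 from 2 h to 4 h. The mean of probes gave 0 lower at 4 h. It left 9 chains higher at 2 h and 7 at 4 h. Col1a1, Col1a2, Col3a1, Col4a2, Col5a3, Col15a1 and Col16a1 were then no longer higher at 2 h. At 4 h the same held for Col1a1, Col1a2, Col4a2, Col5a3 and Col17a1. Col2a1, Col6a2 and Col6a3 came in at 2 h, and Col2a1 and Col4a4 at 4 h. Testing every probe gave 2 lower at 2 h and 2 at 4 h, and 2 higher and 5 lower from 2 h to 4 h. With the replicate number as a block, which is the same fit as the slide block, 20 were higher at 2 h, 3 lower at 4 h and 8 lower from 2 h to 4 h. Leaving out 1 array at a time left 2 to 10 higher at 2 h, 3 to 8 at 4 h, 0 to 1 higher and 1 lower from 2 h to 4 h. The fibrillar median minus that of the other chains at 2 h was -0.11 with the mean of probes and -0.13 with every probe, and between -0.13 and -0.00054 with 1 array left out; at 4 h it was -0.16 under normexp with the 75th percentile, -0.15 with the mean of probes and -0.11 with every probe (0.05 as reported), and between -0.026 and 0.11 with 1 array left out.

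These signs turned. At 2 h spike-in scaling gave Col1a1 -0.13, Col1a2 -0.10, Col3a1 -0.23, Col4a1 -0.075, Col4a2 -0.14, Col5a1 -0.39, Col5a2 -0.30, Col5a3 -0.18, Col6a2 -0.26, Col7a1 -0.088, Col9a2 -0.16, Col12a1 -0.44, Col15a1 -0.22 and Col16a1 -0.22. No scaling gave Col1a1 -0.011, Col3a1 -0.11, Col4a2 -0.030, Col5a1 -0.28, Col5a3 -0.060, Col9a2 -0.044, Col12a1 -0.33, Col15a1 -0.11 and Col16a1 -0.11. Quantile normalization gave Col1a1 -0.042, Col3a1 -0.068, Col5a1 -0.22 and Col16a1 -0.058, and after normexp Col1a1 -0.025, Col3a1 -0.10, Col5a1 -0.21 and Col16a1 -0.041. The mean of probes gave Col1a2 -0.33, Col3a1 -0.21 and Col4a3bp 0.057. At 4 h quantile normalization gave Col1a1 -0.063, Col1a2 -0.047 and Col5a2 -0.21, and after normexp Col1a1 -0.050, Col1a2 -0.054 and Col5a2 -0.22. No scaling gave Col1a1 -0.027 and Col1a2 -0.021, and spike-in scaling Col1a1 -0.029, Col1a2 -0.023, Col5a2 -0.22 and Col9a2 -0.25. From 2 h to 4 h normexp with the 75th percentile gave Col9a2 0.062.

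The causes were not tested, beyond the fewer arrays left when 1 is dropped. Dim signals limit Col13a1, Col25a1 and Col28a1. The deposited value table and keeping outlier spots left every count of names as reported.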
